A study of Mus musculus with 8 samples.

Results

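Cd28, Ctla4, Icos, Icosl, Cd80 and Cd86 encode the CD28 family of T cell receptors for costimulation and the B7 family proteins that they bind. They were chosen by gene symbol as 6 of the 770 genes of a mouse NanoString immune panel, and all 6 passed the filter on low values that left 609 genes. The panel counts barcoded probes on chosen transcripts without amplification. Total RNA came from mouse lymph nodes, 4 labelled tumor-bearing and 4 labelled tumor-free, each with a replicate number from 1 to 4. The nodes labelled tumor-bearing are said to hold Eµ-myc lymphoma cells that arrived through the lymphatic vessels, and the series title places them in the inguinal node and calls the disease DLBCL, diffuse large B cell lymphoma. Eµ-myc is a Myc transgene under the immunoglobulin heavy chain enhancer, which gives tumors of the B cell lineage. The labels state no strain, age, host or time, and do not say whether the numbered nodes came from separate animals. The p-values thus reflect only how far these samples spread, and that spread may be technical.

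CD28 sits on T cells and gives the costimulatory signal that, with the antigen receptor, starts cytokine production and division. CTLA-4, made after activation and kept high on regulatory T cells, binds the same ligands, CD80 and CD86, more tightly and restrains the response. ICOS, also made after activation, binds ICOS ligand alone and sustains follicular helper and regulatory T cells. In lymph nodes CD80 and CD86 appear on activated dendritic cells, macrophages and B cells, and ICOS ligand is carried by resting B cells as well.

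Each library held between 659771 and 819257 counts over the panel, recovered from the deposited values. Myc, read as a check of the labels, had values from 2996 to 3281 in the libraries labelled tumor-bearing and from 9250 to 33147 in those labelled tumor-free, the reverse of what the labels would give for a Myc transgene tumor. The groups keep their label names here, and each difference would turn round were the labels swapped. The library labelled tumor-free replicate 3 stood apart from its group. Its Myc value of 9250 was the lowest of the 4, the other 3 being at 29389 or more. Its 12 T cell markers summed to 34163. The sum was 38054 to 45480.5 in the libraries labelled tumor-bearing and at most 14179 in the other 3 labelled tumor-free. Values are therefore also given without it. No value in the table is 0, and no gene's level is compared with another's, since probes differ in how well they capture.

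The receptor genes Cd28, Ctla4 and Icos lie next to each other, in this order, among the protein-coding genes of mouse chromosome 1, Cd80 and Cd86 both lie on chromosome 16 and Icosl on chromosome 10 (RefSeq, GRCm38.p6). The RefSeq promoter table held windows for 3 of the 6, Ctla4, Icosl and Cd80. The 250 bases before the start are shown for Ctla4, a receptor gene, and Icosl, a ligand gene, since both genes were called and their starts differ in base composition. The window of Cd80 lies inside the annotated span of the gene and is not shown. Motifs searched on both strands were GGAAA (the NFAT core), TGANTCA (AP-1), the NF-kB motif, TATAAA and GGGCGG (the GC box), and capitals mark matches. The Ctla4 window is chr1:60908775-60909024 and the Icosl window chr10:78069118-78069367, both on the plus strand of GRCm38.p6.
Ctla4: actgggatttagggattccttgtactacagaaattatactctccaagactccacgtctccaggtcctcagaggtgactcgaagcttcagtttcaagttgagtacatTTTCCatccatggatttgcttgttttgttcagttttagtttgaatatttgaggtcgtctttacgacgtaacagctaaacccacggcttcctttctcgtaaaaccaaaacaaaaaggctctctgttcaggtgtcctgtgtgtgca
Icosl: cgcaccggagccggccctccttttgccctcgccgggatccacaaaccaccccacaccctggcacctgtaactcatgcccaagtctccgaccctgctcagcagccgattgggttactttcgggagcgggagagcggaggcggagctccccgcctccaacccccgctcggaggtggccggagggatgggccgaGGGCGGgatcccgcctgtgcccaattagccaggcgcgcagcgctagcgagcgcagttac
The Ctla4 window has a GC content of 42.4% and 1 match, the NFAT core on the minus strand. The Icosl window has a GC content of 68.8% and 1 match, a GC box. Of 32841 promoter windows in the table, 55.6% hold the NFAT core, 32.7% a GC box, 12.4% TATAAA, 6.75% the AP-1 motif and 1.41% the NF-kB motif. The median GC content of these windows is 52.4%. These matches describe letters and not bound sites.

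All 3 receptor genes and 1 of the 3 ligand genes, Icosl, rose in the nodes labelled tumor-bearing, while the differences of Cd80 and Cd86 did not pass the test. At a limma adjusted p under 0.05, 4 of the 6 genes were thus higher and 0 lower, where 27.6% of the 609 tested genes were higher and 10.7% lower. The groups did not overlap for Cd28 and Icos, 2 of the 6, and 21.7% of tested genes had every value labelled tumor-bearing above every value labelled tumor-free. The median log2 difference was 1.40 for the receptors and 0.48 for the ligands, beside 0.36 over all tested genes. The scaling moved that last median, to 0.91 when libraries were scaled on the panel's 20 reference genes and to -0.17 with 1 common median for the libraries, and the ligand median was then 1.02 and -0.067.

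**Figure D1:**
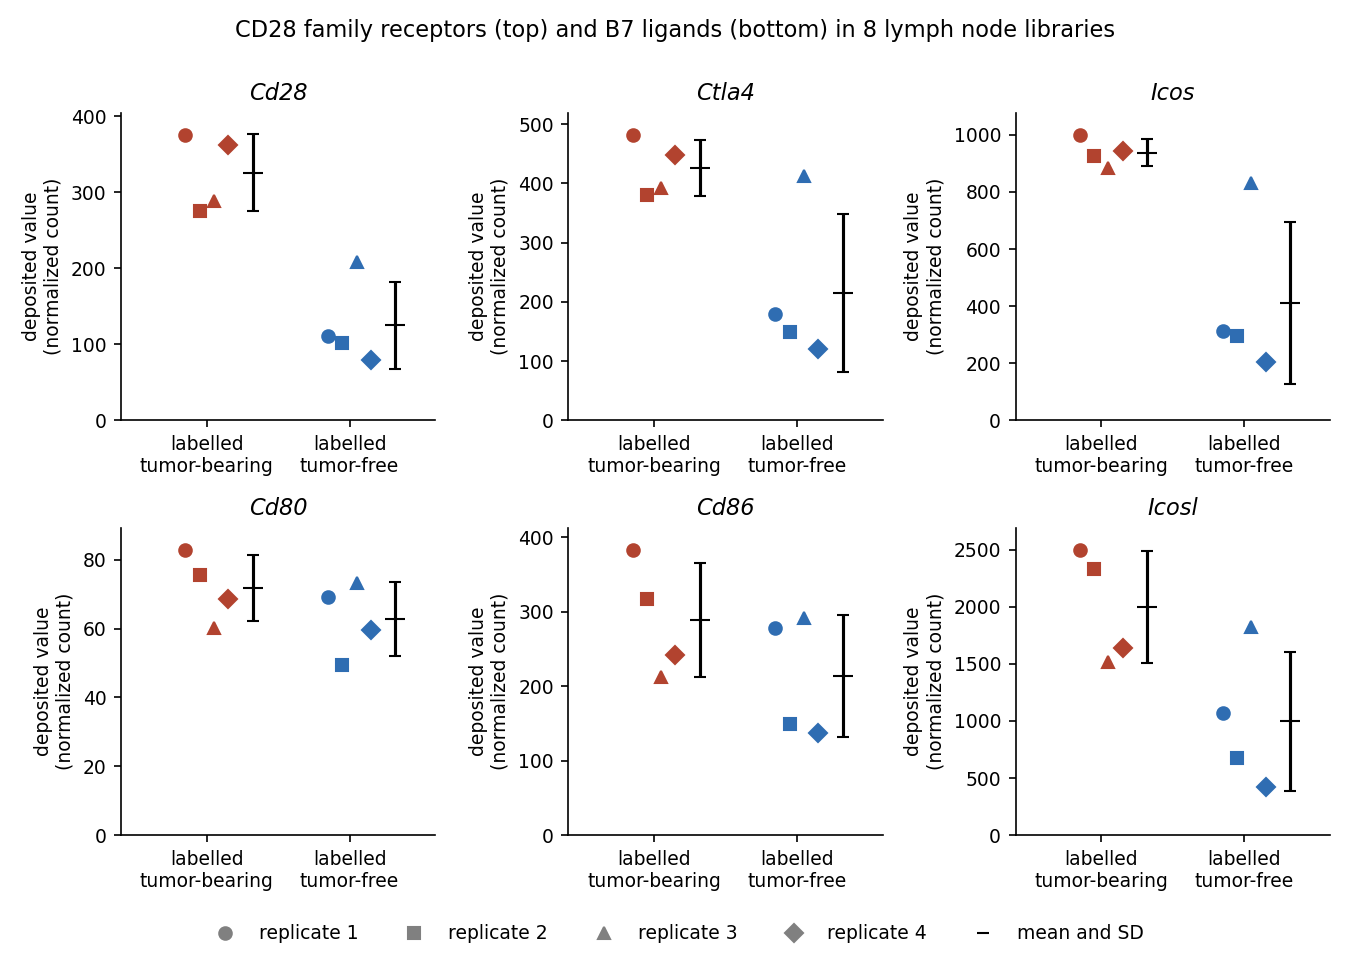
Deposited normalized counts (vertical axes, from 0) of Cd28, Ctla4 and Icos (top) and Cd80, Cd86 and Icosl (bottom) in the 4 libraries labelled tumor-bearing (red) and the 4 labelled tumor-free (blue), with the mean and SD of each group in black and replicates by symbol. The library labelled tumor-free replicate 3 (blue triangle) is the highest of its label for all 6 genes and the groups do not overlap for Cd28 and Icos.

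Cd28 had values of 375, 275.5, 289 and 363 in replicates 1 to 4 labelled tumor-bearing, against 111, 102, 209 and 79.7 in those labelled tumor-free. Every library labelled tumor-bearing lay above every one labelled tumor-free, and tumor-free replicate 3 was closest to the other group. Means were 326 ± 50.6 and 125 ± 57.3 (SD, n = 4 each), a rise of 1.45 on the log2(value + 1) scale (95% interval 0.76 to 2.15, SE 0.31) or 2.74-fold, with a limma adjusted p of 0.0195. Among the 609 tested genes, 55 had a larger positive difference. Without tumor-free replicate 3 the mean labelled tumor-free was 97.4 ± 15.97 (SD, n = 3).

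Ctla4, the inhibitory receptor, had values of 481, 379.8, 393 and 448 in replicates 1 to 4 labelled tumor-bearing, against 179.9, 149, 412 and 120.4 in those labelled tumor-free. The groups overlapped through tumor-free replicate 3 alone, which exceeded tumor-bearing replicates 2 and 3. Means were 425 ± 47.3 and 215 ± 133 (SD, n = 4 each), a rise of 1.14 on the log2 scale (95% interval 0.35 to 1.94, SE 0.36) or 2.21-fold, with a limma adjusted p of 0.0324. Of the 3 receptors Ctla4 had the smallest difference, and the intervals of all 3 overlapped. Without tumor-free replicate 3 the mean labelled tumor-free was 149.7 ± 29.7 (SD, n = 3).

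Icos had values of 998, 925, 884 and 942 in replicates 1 to 4 labelled tumor-bearing, against 312, 296, 832 and 203 in those labelled tumor-free. The libraries labelled tumor-bearing kept close together and all lay above the other group, where replicate 3 stood well above the rest. Means were 937 ± 47.3 and 411 ± 285 (SD, n = 4 each), a rise of 1.40 on the log2 scale (95% interval 0.57 to 2.24, SE 0.38) or 2.65-fold, with a limma adjusted p of 0.0253. Without tumor-free replicate 3 the mean labelled tumor-free was 270.2 ± 58.7 (SD, n = 3).

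Icosl, the ligand of ICOS, had values of 2494, 2335, 1514 and 1640.15 in replicates 1 to 4 labelled tumor-bearing, against 1069, 674, 1822 and 418 in those labelled tumor-free. Tumor-free replicate 3 exceeded tumor-bearing replicates 3 and 4, and the other libraries labelled tumor-free lay below the whole other group. Means were 1996 ± 490.4 and 996 ± 612 (SD, n = 4 each), a rise of 1.18 on the log2 scale (95% interval 0.26 to 2.09, SE 0.41) or 2.26-fold, with a limma adjusted p of 0.0448, close to the threshold. Without tumor-free replicate 3 the mean labelled tumor-free was 720.3 ± 328 (SD, n = 3).

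Cd86, the B7 protein that antigen-presenting cells show first on activation, had values of 383, 317, 213 and 242 in replicates 1 to 4 labelled tumor-bearing, against 278, 149.55, 292 and 138 in those labelled tumor-free. The groups overlapped, with tumor-free replicates 1 and 3 above tumor-bearing replicates 3 and 4. Means were 289 ± 76.4 and 214 ± 81.9 (SD, n = 4 each), and the log2 difference of 0.48 (95% interval -0.25 to 1.20, SE 0.32) had a limma adjusted p of 0.244. Cd80, its relative that appears later in activation, had values of 82.7, 75.7, 60.2 and 68.5 in replicates 1 to 4 labelled tumor-bearing, against 69.3, 49.3, 73.4 and 59.8 in those labelled tumor-free. Its libraries were interleaved between the groups. Means were 71.8 ± 9.66 and 62.9 ± 10.7 (SD, n = 4 each), and the log2 difference of 0.19 (95% interval -0.34 to 0.73, SE 0.24) had a limma adjusted p of 0.522. On the deposited scaling the interval for Cd80 does not reach a 2-fold change in either direction, while that for Cd86 does in the upward direction. The Cd80 difference itself moved to 0.73 with libraries scaled on the reference genes and to -0.34 with the same median.

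Cd80 rested on the fewest counts of the 6 genes, from 60 to 72 in all 8 libraries, before the authors' factor of 0.822 to 1.29 per library. A count of 60 has an exact Poisson interval at 95% of 45.8 to 77.2, wide enough to hold all 8 counts, and covers counting error alone. Cd28 had 84 to 334 counts, Ctla4 127 to 424, Cd86 145 to 296, Icos 214 to 954 and Icosl 441 to 2127. Recovered counts of Cd80 thus stayed level across libraries where those of the receptors differed several-fold. The labels name no background step, so the share of these counts owed to the target is unknown.

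The calls of the 4 genes depended on single libraries and on the scaling. Without tumor-free replicate 3 the same 4 genes were called higher, with log2 differences from 1.51 to 1.81, in a fit that called 43.3% of all tested genes higher. Cd28 kept its call without tumor-free replicate 4 or tumor-bearing replicate 1 and lost it without tumor-free replicates 1 or 2 or tumor-bearing replicates 2, 3 or 4 (limma adjusted p from 0.0536 to 0.0735). Icos also kept it without tumor-free replicate 4 and lost it without tumor-free replicates 1 or 2 or any one labelled tumor-bearing (0.0536 to 0.0816). Ctla4 and Icosl lost it without any one library other than tumor-free replicate 3 (0.0606 to 0.0957 and 0.0621 to 0.122). Calls were lost over the whole panel too. Of all 609 tested genes, limma called 5, 0 and 89 higher without tumor-free replicates 1, 2 and 4. It called 11, 1, 0 and 1 higher without tumor-bearing replicates 1, 2, 3 and 4. In these 8 fits the log2 difference stayed positive for all 6 genes, the lowest being 0.084 for Cd80 and 0.29 for Cd86. With edgeR on recovered counts, where 19.2% of genes were higher, Cd28 and Icos were called and Ctla4 and Icosl were not (adjusted p = 0.0582 and 0.0697). When libraries were scaled on the panel's 20 reference genes, all 6 genes were called higher, beside 59.6% of all tested genes. Cd80 then had a log2 difference of 0.73 and Cd86 of 1.02 (adjusted p = 0.0352 and 0.0391), whereas with libraries scaled to the same median these were -0.34 and -0.07, and Ctla4 missed the threshold there (0.60, adjusted p = 0.0501).

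**Figure D2:**
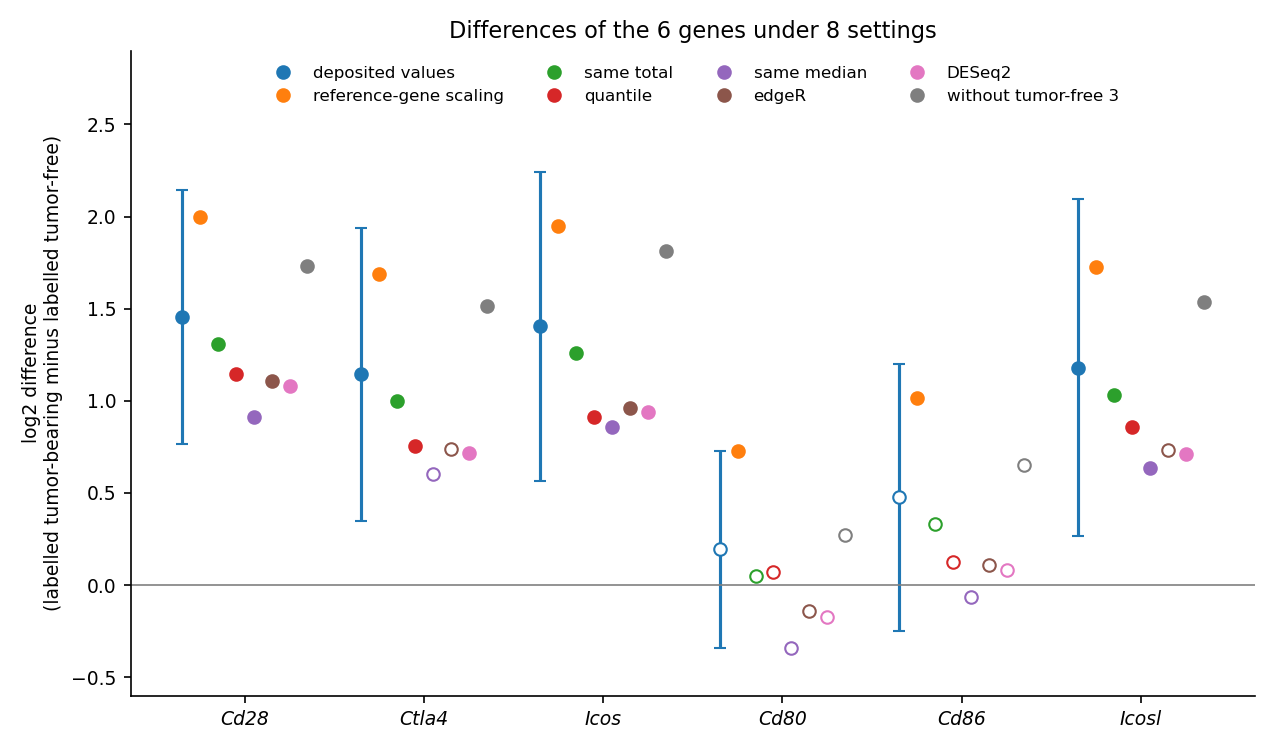
Log2 difference (vertical axis, labelled tumor-bearing minus labelled tumor-free) of each gene under 8 settings, with filled points at an adjusted p under 0.05, open points above it, and the 95% interval for the deposited values. The receptors and Icosl lie above 0 in all 8 settings, while Cd80 and Cd86 lie on both sides of 0.

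Ratios within a library do not move with 1 scaling factor per library, so 26 log2 ratios were compared between the groups, 15 of them among the 6 genes. After Benjamini-Hochberg adjustment over the 26, 0 ratios passed (smallest adjusted p = 0.0929, two-sided exact permutation test). Passing would have needed at least 15 of the 26 at the smallest p that the design allows. In 8 of them the groups did not overlap, each with the exact permutation p of 0.0286, the smallest that 4 libraries against 4 allow. The 8 are given here as values that missed the adjusted threshold.

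The largest of these differences set receptors against Cd80. The log2 ratio of Cd28 to Cd80 was 2.17, 1.85, 2.24 and 2.39 in replicates 1 to 4 labelled tumor-bearing, against 0.67, 1.03, 1.497 and 0.41 in those labelled tumor-free, a difference of 1.26. The ratio of Icos to Cd80 averaged 3.70 and 2.49, a difference of 1.21. Every library labelled tumor-bearing thus had more Cd28 signal and more Icos signal per unit of Cd80 signal than any labelled tumor-free. Cd28 to Cd86 differed by 0.98, with tumor-bearing libraries from -0.20 to 0.58 and tumor-free libraries from -1.32 to -0.48. For Ctla4 the gap was smaller and the groups overlapped, with differences of 0.95 against Cd80 and 0.67 against Cd86 (adjusted exact permutation p = 0.135 and 0.159). Icosl to Cd86, a ratio between ligands, ranged from 2.70 to 2.88 in the libraries labelled tumor-bearing and from 1.598 to 2.64 in those labelled tumor-free, a difference of 0.70.

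Within the receptors the ratios shifted by less. Cd28 to Ctla4, the activating over the inhibitory receptor, was -0.36, -0.46, -0.44 and -0.30 in replicates 1 to 4 labelled tumor-bearing, against -0.70, -0.54, -0.98 and -0.59 in those labelled tumor-free, a difference of 0.31. Ctla4 to Icos differed by -0.26, with tumor-bearing libraries from -1.28 to -1.05 and tumor-free libraries from -1.01 to -0.75. Cd28 to Icos differed by 0.051 and Icos to its ligand Icosl by 0.23, both with overlapping groups (adjusted exact permutation p = 0.832 and 0.425). Without tumor-free replicate 3 the difference of Cd28 to Icos was -0.083.

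The receptors were also set against Cd3e, part of the CD3 signalling complex on every T cell, whose own values were 3602, 3641, 3553 and 3606 in replicates 1 to 4 labelled tumor-bearing, against 1291, 1001, 2947 and 477 in those labelled tumor-free. Per unit of Cd3e, Cd28 differed by -0.18 and Icos by -0.23, with overlapping groups (adjusted exact permutation p = 0.777 and 0.371). Ctla4 per unit of Cd3e ranged from -3.26 to -2.90 in the libraries labelled tumor-bearing and from -2.84 to -1.98 in those labelled tumor-free, a difference of -0.49. Its groups did not overlap, and its adjusted exact permutation p was 0.0929. These ratios leaned on tumor-free replicate 4, without which the differences were 0.067 for Cd28, -0.066 for Icos and -0.28 for Ctla4. Against Foxp3, the factor that defines regulatory T cells, Ctla4 differed by -0.22 and Icos by 0.043, with overlapping groups. Foxp3 itself averaged 548 ± 46.6 and 257 ± 193 (SD, n = 4 each), a log2 difference of 1.36 (limma adjusted p = 0.035).

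Against Itgax, an integrin of dendritic cells, Cd80 ranged from -0.20 to 0.023 in the libraries labelled tumor-bearing and from 0.17 to 0.46 in those labelled tumor-free, a difference of -0.36 with no overlap. Itgax itself had a log2 difference of 0.56 (limma adjusted p = 0.0913). Cd86 to Itgax differed by -0.083 and Icosl to Itgax by 0.62, with overlapping groups. Leaving out 1 library gave -0.28 (tumor-free replicate 4) to 0.080 (tumor-free replicate 1) for Cd86 to Itgax, and 0.256 for Icosl to Itgax without tumor-free replicate 4. Against Ms4a1, the B cell surface protein CD20, Icosl differed by 0.25, Cd86 by -0.46 and Cd80 by -0.74, and all 3 overlapped. Icosl to Ms4a1 ranged from -1.745 to -1.39 in the libraries labelled tumor-bearing and from -1.996 to -1.70 in those labelled tumor-free. Ms4a1 had a log2 difference of 0.93 (limma adjusted p = 0.0861).

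**Figure D3:**
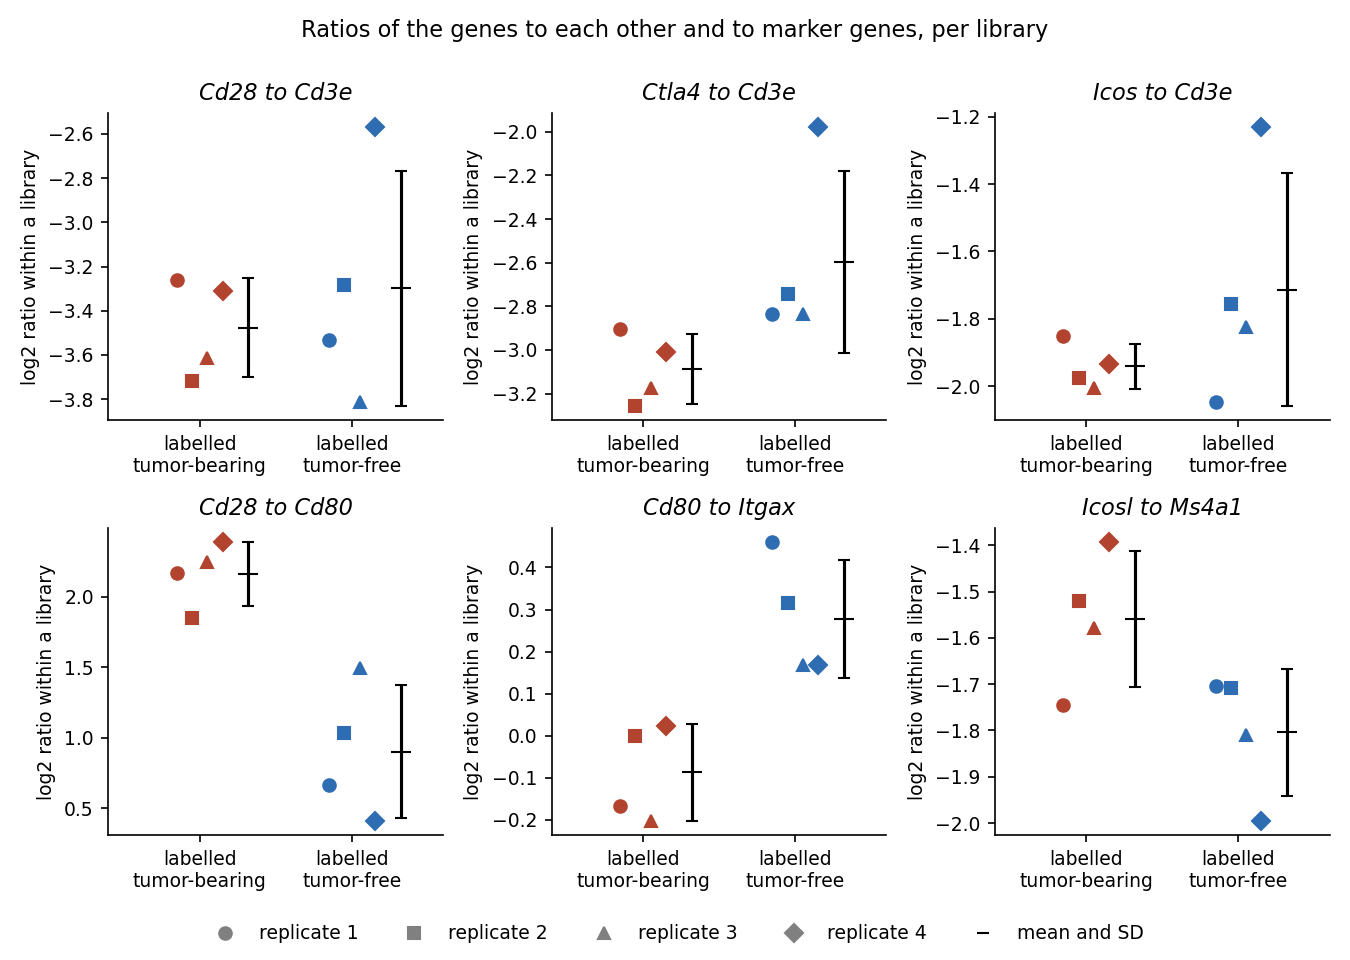
Log2 ratio within each library (vertical axes) for 6 of the 26 ratios, in the 4 libraries labelled tumor-bearing (red) and the 4 labelled tumor-free (blue), with the mean and SD in black. Groups do not overlap for Ctla4 to Cd3e, Cd28 to Cd80 and Cd80 to Itgax, and overlap for Cd28 to Cd3e, Icos to Cd3e and Icosl to Ms4a1.

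Each of the 6 genes was matched to the tested genes with the most similar pattern over the 8 libraries, measured as the root mean square difference of centred log2 values, where 0 is the same pattern. Nearest to Cd28 were Cd4, the coreceptor of helper T cells (0.18), Tnfsf14 (0.19) and Ctla4 (0.20), beside a median of 0.67 over all tested genes. Nearest to Ctla4 were Notch1 (0.11), the kinase Fyn (0.11) and Tnfaip3, the NF-kB inhibitor A20 (0.11), and nearest to Icos were Egr1 (0.098), Pvr (0.10) and Ptprc, the leukocyte antigen CD45 (0.13). The receptors were close to each other, at 0.17 for Ctla4 and Icos and 0.20 for Cd28 and Icos, but many other genes were as close. In nearness to Icos, Ctla4 ranked 14 and Cd28 ranked 31. For Ctla4 the ranks were 18 (Icos) and 35 (Cd28), and for Cd28 they were 3 (Ctla4) and 4 (Icos). Nearest to Icosl were Blk, a kinase of B cells (0.11), Il18rap (0.12) and Tnfrsf4, the costimulator OX40 (0.13), and Icosl lay 0.30 from its receptor Icos. Among the genes nearest to Cd80 were Casp8 (0.063) and Ly9 (0.087), and among those nearest to Cd86 were Tapbp, the peptide-loading protein tapasin (0.093), and Ccl27a (0.14). Cd80 and Cd86 lay 0.30 apart, while Cd80 lay 0.62 to 0.76 from the receptors. All of these points share the same 8 libraries and their scaling.

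Of 8 listed genes of further CD28 and B7 family proteins and the ligand of BTLA, 6 were on the panel, and 3 were called higher and 0 lower. That share was 50%, where 27.6% of all tested genes were higher and 10.7% lower. With edgeR or the same median 2 of the 6 were higher, beside 19.2% and 18.9% of all tested genes. After scaling on the reference genes all 6 were higher, as were 59.6% of all tested genes. Btla, an inhibitory receptor of T and B cells, rose by 1.09 (limma adjusted p = 0.0253) and its ligand Tnfrsf14, which belongs to the TNF receptor family, by 1.04 (0.0282). Pdcd1, the inhibitory receptor PD-1, rose by 1.01 (0.0299). Of the B7 proteins, Pdcd1lg2, Cd274 and Cd276 had log2 differences of 1.13, 0.78 and 0.35 (adjusted p = 0.0555, 0.133 and 0.382), and Cd276 was negative in 2 of the 6 other scalings and tools. Among these further family genes, the difference between receptors and B7 ligands was not tested.

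Genes that carry the signal downstream of CD28 and CTLA-4 were measured for 22 of 38 listed, of which 10 were called higher and 0 lower, with a median log2 difference of 0.81. The share higher was 45.5%, beside 27.6% of all tested genes. With libraries scaled to the same median 5 were higher and 3 lower, where 18.9% of all tested genes were higher and 24.8% lower. Among those called, the factor Nfatc2 rose by 1.84, and the kinases Lck, Zap70 and Fyn by 1.60, 1.52 and 1.14. Pik3cd, Nfkb2, Rel and Nfatc1 rose by 0.83 to 0.88. Il2, the cytokine that CD28 costimulation induces, averaged 44.5 ± 6.97 and 21.1 ± 16.5 (SD, n = 4 each), a log2 difference of 1.32 whose limma adjusted p rounds to the threshold of 0.05 and does not fall under it (unadjusted p = 0.0192). The widely expressed Rela and Mapk8 had log2 differences of -0.07 and -0.15 (limma adjusted p = 0.738 and 0.464).

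Of 10 follicular helper T cell genes linked to ICOS, 8 passed the filter, 3 were called higher and 0 lower, a share of 37.5% beside 27.6% of all tested genes. All 8 were called after scaling on the reference genes, as were 59.6% of all tested genes. Cd40lg, the ligand by which T cells activate B cells, rose by 1.68, the adaptor Sh2d1a by 1.37 and Il6ra by 1.11 (limma adjusted p = 0.0265, 0.0279 and 0.0251). Bcl6, the defining factor of these cells, had a log2 difference of 0.80 (adjusted p = 0.0894), its homing receptor Cxcr5 of 0.87 (0.0761), Batf of 0.80 (0.0538), Maf of 0.70 (0.103) and Cxcl13 of 0.62 (0.238). Il21 and Il4 did not pass the filter, with means of 21.0 and 15.4 in the nodes labelled tumor-bearing and 14.0 and 8.55 in those labelled tumor-free.

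Of 11 regulatory T cell genes measured, 10 passed the filter, 7 were called higher and 0 lower, with a median log2 difference of 1.21, where 27.6% of all tested genes were higher. With edgeR 2 of the 10 were called higher, where 19.2% of all tested genes were. Besides Foxp3 these were Ikzf2 at 1.47, Ccr8 at 1.33, Tnfrsf4 at 1.27, Il2ra at 1.23, Tnfrsf18 at 1.20 and Nt5e at 1.09 (limma adjusted p from 0.0265 to 0.0437). Il2rb had a log2 difference of 1.04 (adjusted p = 0.0579), Tgfb1 of 0.24 (0.244) and Entpd1 of 0.13 (0.725), and both Tgfb1 and Entpd1 were negative under some of the 6 other scalings and tools. Il10 did not pass the filter, at means of 12.0 and 9.47.

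Genes that regulate B7 proteins on antigen-presenting cells were called higher for 3 of 14 that passed the filter and lower for 0. That share was 21.4%, beside the 27.6% of all tested genes. Their median log2 difference of 0.46 became -0.087 with libraries scaled to the same median. Those called were Cd40lg, its receptor Cd40 (1.24, limma adjusted p = 0.0453) and Ifnar1, the type I interferon receptor (0.88, 0.0265). Tlr4 and Tlr9, sensors of microbial products, had log2 differences of 0.48 and 0.46 (adjusted p = 0.174 and 0.204). The interferon-induced factor Irf7 averaged 666 ± 463 and 1230.4 ± 946 (SD, n = 4 each), a log2 difference of -0.72 (adjusted p = 0.366). Ifng, Csf2 and Il10 did not pass the filter.

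**Figure D4:**
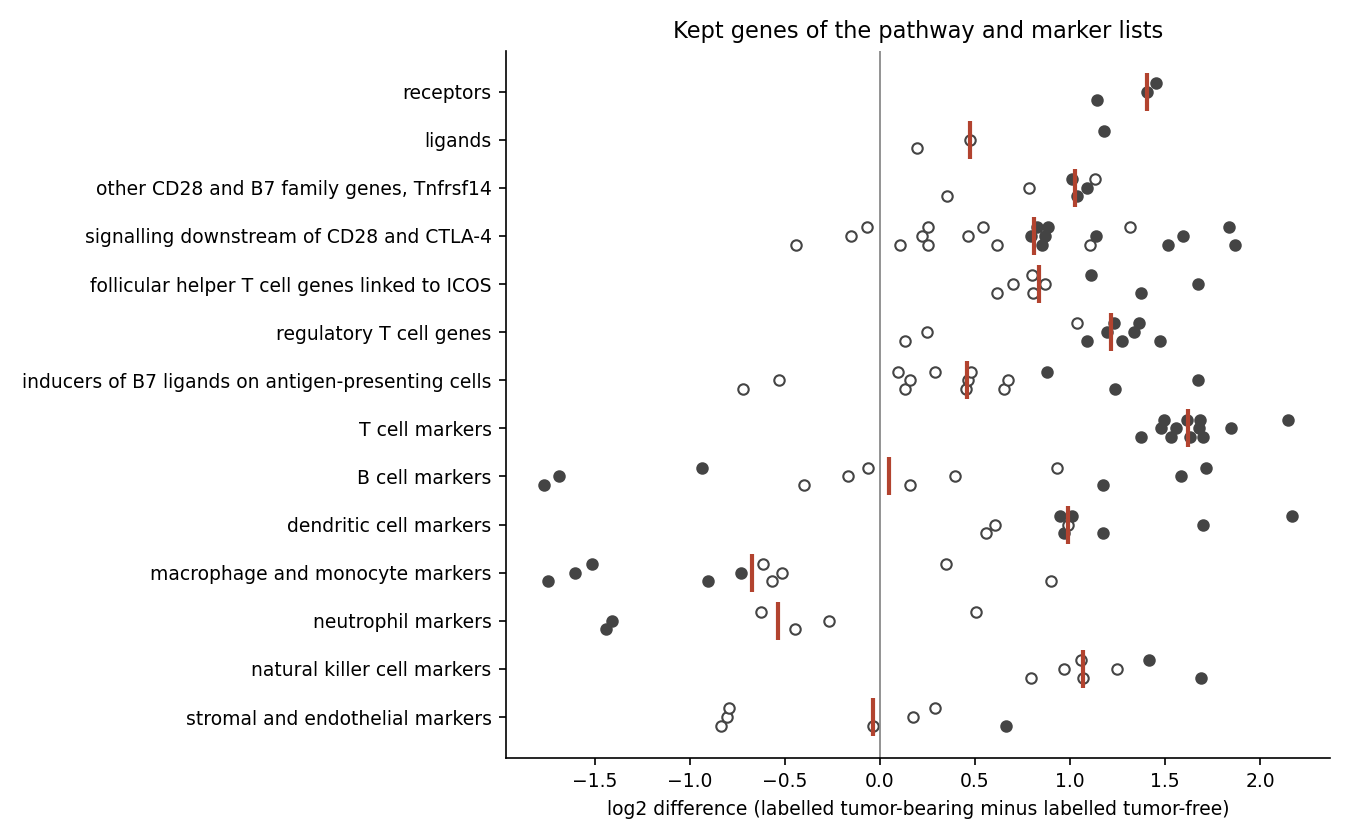
Log2 difference (horizontal axis, labelled tumor-bearing minus labelled tumor-free) of each gene that passed the filter in 14 lists, filled at a limma adjusted p under 0.05 and open above it, with the list median as a red bar. The 12 T cell markers are all filled, the lowest being Cd7 at 1.38, and the filled macrophage and neutrophil markers all lie below 0.

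Markers of the cells that carry these genes moved too, and in RNA from whole nodes fewer cells of a type and less RNA per cell cannot be told apart. The counts below stand beside 27.6% of all tested genes called higher and 10.7% called lower. The 12 T cell markers, of which Cd4, Cd8a and Cd8b1 mark subsets, were all called higher, Cd2 (2.15) and Cd8a (1.85) the most, with a median log2 difference of 1.62 and a summed level of 38054 to 45480.5 in the libraries labelled tumor-bearing, against 5974 to 34163 in those labelled tumor-free. The receptors' median of 1.40 stood beside these values, and their part in the result was not tested. Of 9 genes listed as dendritic cell markers, 6 were called higher and 0 lower, with Itgae at 2.17 and Ccl22 at 1.70 the farthest. Whether other cells, such as T cells, also gave signal for these 9 genes was not tested. Itgax (0.56), Flt3 (0.61) and Ccl17 (0.99) were not called (limma adjusted p = 0.0913, 0.0663 and 0.108). The summed level was 7589 to 10174 in the libraries labelled tumor-bearing, against 2755 to 7392 in those labelled tumor-free. Ccr7 made the largest part of that sum, with means of 4807 and 2645. Of 12 B cell markers, 3 were called higher, namely Cr2 (1.72), Fcer2a (1.58) and Blk (1.17), and 3 lower, namely Pou2af1 (-1.77), Blnk (-1.69) and Btk (-0.94). The summed level of the B cell markers was 17034 to 30077 in the libraries labelled tumor-bearing, against 20386 to 25099.6 in those labelled tumor-free, and their median of 0.046 was negative in 5 of the 6 other scalings and tools. Of 10 macrophage and monocyte markers that passed the filter, 5 were called lower and 0 higher. The 5 were Fcgr1 (-1.75), Marco (-1.60), Msr1 (-1.52), Emr1 (-0.91) and Csf1r (-0.73). The summed level, which includes a measured marker that did not pass the filter, was 1139.7 to 1726 in the libraries labelled tumor-bearing. It was 1694 to 2203 in those labelled tumor-free. The 5 named stayed negative under the 6 other scalings and tools. Of the 10 markers, 3 were called lower and 2 others higher after scaling on the reference genes, and 7 or 8 lower under the other 5. No marker of these 4 lists read 0 in any library, and the part of these cells in the values of Icosl, Cd80 and Cd86 was not tested.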

How the data were processed

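NanoString counts of mouse lymph node RNA were deposited by the authors as a normalized signal, with 1 factor per library. The labels name no software, scaling genes or background step. Within 0.1 of a step, 100% of values came out as whole counts of 1 step per library. In 1 column the smallest value is that step, and in the others it stands for 2 or 3 counts.

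Genes with a value of 20 or more in at least 4 libraries (609 of 770) entered limma 3.58.1 (R 4.3.3) on the log2(value + 1) scale, fitted with eBayes with trend, two-sided, group as the only term, with Benjamini-Hochberg adjustment over these genes and a threshold of 0.05. For low genes this scale gives too small a fold change. Ratios were compared by exact permutation. edgeR 4.0.16 and DESeq2 1.42.0 on recovered counts, other scalings, pseudocounts, filters and moderation, a replicate block and leaving out each library were alternatives. The fits were tested on simulated data. Named were the 6 genes, Myc, the partners of the ratios, the 3 nearest genes by pattern, the 2 called genes with the largest change per list and direction (all where 5 or fewer were called), and every measured gene of the wider family, follicular helper and regulatory lists. Further called signalling genes, Il2, Rela, Mapk8, Tlr4, Tlr9, Irf7, Col1a1, Col3a1 and Cd7 (in a caption) were named after their values were seen. So were Ccr7, Flt3, Ccl17, S100a8, Csf3r, Camp and Cxcr2. Some genes that the rule names are not reported here. The genes and lists were chosen with earlier results of these data known. No pair of libraries within a group matched within sampling noise, the chi-square over its degrees of freedom being 3.26 or more.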

Additional observations from a re-analysis of the deposited data

Results flagged for a closer look

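Values were compared with Dixon's 95% critical value in 74 groups of 4, and 4 passed it, where chance flags about 5% of groups. The Myc value of 9250 in tumor-free replicate 3 lay far below the rest of its group (gap over range 0.843). The Ctla4 to Cd3e log2 ratio of -1.98 in tumor-free replicate 4 lay above the other 3 of its group (0.89). The Ctla4 to Foxp3 log2 ratio of -0.16 in tumor-bearing replicate 1 lay above its group (0.884), and the Cd86 to Ms4a1 log2 ratio of -4.15 in tumor-bearing replicate 4 also lay above its group (0.837).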

How the results depend on the processing

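Cd28 and Icos kept their direction and call in all 14 alternatives that used every library, with log2 differences from 0.91 to 2.00 and from 0.86 to 1.95. Ctla4 was no longer called when scaled to the same median (0.60) or by edgeR (0.74), nor Icosl by edgeR (0.73). Cd80 and Cd86 were called after reference-gene scaling (0.73 and 1.02), and Cd86 with sample weights (0.52). Scaling to the same median gave a negative Cd80 (-0.34) and Cd86 (-0.067), and Cd80 was negative by edgeR (-0.14) and by DESeq2 (-0.17). Leaving out 1 library gave log2 differences from 1.27 to 1.73 for Cd28, 0.92 to 1.51 for Ctla4, 1.14 to 1.81 for Icos, 0.83 to 1.54 for Icosl, 0.084 to 0.27 for Cd80 and 0.29 to 0.65 for Cd86. The cause of these changes was not tested.

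Over all tested genes 168 were higher and 65 lower. The counts were 363 and 38 after reference-gene scaling and 296 and 143 with sample weights, as to genes lower, there were 151 after scaling to the same median, 121 with quantile normalization, 109 with the same total, 143 with edgeR and 181 with DESeq2, and without 1 library they ranged from 0 to 264 higher and from 0 to 93 lower. In the fit without tumor-bearing replicate 3, limma called 0 genes, with 220 higher and 66 lower at unadjusted p under 0.05. On all 8 libraries edgeR called 117 higher and 143 lower. With the replicate number as a block, 173 genes were higher and 65 lower, and Cd28 (adjusted p = 0.00683), Icos (0.00776), Icosl (0.0178) and Ctla4 (0.0197) kept their calls. Same-numbered libraries deviated together for number 1 (correlation 0.548) and not for the others (0.0283, 0.0137 and -0.0371). With so few libraries these correlations cannot decide whether the numbers pair the libraries. With 4 pairs the ratios cannot go below an exact p of 0.125. With the filter at 100, Cd80 was not tested. Cd80 had the fewest counts of the 6 genes, and its SE of 0.24 was the smallest.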

Other observations

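Other marker lists are given beside the 27.6% of all tested genes that were called higher and the 10.7% called lower. Of 7 natural killer cell markers that passed the filter, 2 were called higher, Klrd1 (1.69) and Prf1 (1.42), and 0 lower. The share higher was 28.6%, close to that of all tested genes. Of 6 neutrophil markers, 2 were called lower, Fcgr4 (-1.44) and Fpr2 (-1.41), and 0 higher. S100a8 (-0.63), Csf3r (-0.45), Camp (-0.27) and Cxcr2 (0.50) were not called (limma adjusted p = 0.244, 0.15, 0.691 and 0.255). Of 7 stromal and endothelial markers, 1 was called higher, Pecam1 (0.66), and 0 lower. Col1a1 and Col3a1, collagen chains of fibroblasts, averaged 31.6 ± 6.84 and 32.3 ± 13.6 in the nodes labelled tumor-bearing and 86.4 ± 99.7 and 80.3 ± 87.0 in those labelled tumor-free (SD, n = 4 each), with limma adjusted p of 0.321 and 0.344.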
